A study of Mus musculus with 8 samples.

Results

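The cytosolic ribosomal protein genes of mouse kidney were examined after exposure to bisphenol A (BPA), a building block of polycarbonate plastic that binds estrogen receptors weakly. Members were the protein-coding genes of the deposited table named Rpsa, or Rps, Rpl or Rplp followed by a number and at most a short suffix (a, x, l, a1 or l1), which leaves out the S6 kinases. This gave 83 of 54532 genes, 32 of the small subunit and 51 of the large subunit. The libraries were of polyadenylated kidney RNA, 4 labelled BPA and 4 labelled vehicle, from mice that the library names call ICR, which is an outbred stock. The dose, the route, the age of the animals and how long they were exposed is not given in the sources used here, and no allele is named. Whether each library is a separate animal is not stated in the labels, so the p-values cover the spread among these libraries, which may be technical.

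Cytosolic ribosomes build all proteins encoded in the nucleus and consist of a small subunit, which reads the message, and a large subunit, which forms peptide bonds. Their protein subunits are made in equal amounts from unlinked genes whose messages are short, abundant and begin with a run of pyrimidines (the 5′ TOP motif), through which mTORC1 and Larp1 control their translation and stability. These genes have also left many processed pseudogenes in mammalian genomes, intronless copies whose sequence is often almost that of the parent message. Short reads from such pairs can be assigned to either copy.

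The coding sequences show how close these copies are. Below, capitals mark the bases that differ between a member and a copy that held most of the reads of the pair in most libraries, in stretches numbered from the A of the start codon (GENCODE release M21, GRCm38). Rps2 lies at chr17:24718116-24721929 on the plus strand and Rps2-ps13 at chrX:52898588-52899469, also plus; Rpl26 lies at chr11:68901583-68906989 on the plus strand and Gm15772 at chr5:3236431-3236868, also plus. Rpl34 lies at chr3:130726831-130730398 on the minus strand and Rpl34-ps1 at chr6:71124610-71124963 on the plus strand.
Rps2, bases 25 to 84: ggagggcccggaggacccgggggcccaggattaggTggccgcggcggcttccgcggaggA
Rps2-ps13, bases 25 to 84: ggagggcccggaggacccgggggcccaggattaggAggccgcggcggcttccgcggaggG
Rpl26, bases 118 to 177: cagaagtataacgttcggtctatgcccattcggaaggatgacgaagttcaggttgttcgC
Gm15772, bases 118 to 177: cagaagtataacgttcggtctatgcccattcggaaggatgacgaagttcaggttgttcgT
Rpl34, bases 73 to 132: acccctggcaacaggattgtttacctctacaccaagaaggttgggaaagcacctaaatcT
Rpl34-ps1, bases 73 to 132: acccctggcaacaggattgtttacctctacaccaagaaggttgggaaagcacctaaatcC
Over the whole coding sequence, Rps2-ps13 differed from Rps2 at 7 of 879 bases, Gm15772 from Rpl26 at 2 of 435, and Rpl34-ps1 from Rpl34 at 2 of 351. The coding sequence of Rpl41, which encodes the shortest ribosomal protein, is shown whole without its stop codon, because the lincRNA gene Gm10076 carries it with no mismatch.
Rpl41, bases 1 to 75: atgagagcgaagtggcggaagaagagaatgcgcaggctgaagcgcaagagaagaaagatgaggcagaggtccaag

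Of the 83 members, 68 shared at least 50% of their 50-base coding windows with another annotated gene, 29 shared all of them, and 3, Rpl3l and Rpl39l among them, shared none. Annotated genes of at most 2000 bases that held at least 50% of a member's windows were counted as its copies, which gave 190 copies for 65 members. How reads that match several genes were handled is not given in the sources used here, so the division of reads between a member and its copies is uncertain throughout. Results are therefore given for the member and, for several whose value the copies move or turn, for the sum with its copies. These sums are given as a change of log2(RPM + 1). RPM is recovered reads scaled to the library size that the FPKM values imply, which differs from the recovered total.

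Promoters were shown for members that the comparison turns on, since the TOP motif lies at the start of the message. RefSeq start sites were matched for 63 of 83 members (GRCm38.p6). The windows run from 40 bases before the start site to 30 bases from it, 5′ to 3′ on the gene's strand, and capitals mark the longest run of C and T that begins with C between 20 bases before the start and its end.
Rpsa, chr9:120127726-120127795, plus: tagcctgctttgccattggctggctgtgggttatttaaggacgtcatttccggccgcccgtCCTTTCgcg
Rpl7a, chr2:26910767-26910836, plus: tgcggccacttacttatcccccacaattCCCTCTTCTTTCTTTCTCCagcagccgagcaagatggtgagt
Rpl38, chr11:114668540-114668609, plus: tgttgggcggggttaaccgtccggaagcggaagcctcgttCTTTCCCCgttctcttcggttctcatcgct
Rps21, chr2:180257339-180257408, plus: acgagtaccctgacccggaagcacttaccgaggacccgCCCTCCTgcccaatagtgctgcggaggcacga
Rpl24, chr16:55966235-55966304, plus: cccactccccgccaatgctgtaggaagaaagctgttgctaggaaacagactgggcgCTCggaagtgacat
Rplp0, chr5:115559427-115559496, plus: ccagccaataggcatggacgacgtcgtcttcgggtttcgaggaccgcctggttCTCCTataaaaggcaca
Rps3a1, chr3:86142639-86142708, minus: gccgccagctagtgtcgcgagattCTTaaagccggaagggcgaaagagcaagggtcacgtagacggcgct
Over the 75 start sites of the 63 matched members, 13 (17.3%) began with C and then 4 bases of C or T, against 2.51% of 32851 start sites of all genes. A run of at least 8 such pyrimidines within the window from 20 bases before to 30 bases after the start stood at 45.3% of member start sites and 14.9% of all. The letters CCGGAAG, the core of an ETS factor motif, were found on either strand of the 300 bases around 36% of member start sites and 8.86% of all. These matches describe sequence only, and annotated start sites can miss the true first base.

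Recovered whole reads were 15944081 to 17351540 per library. FPKM, a read count divided by the gene's length and the library's size, was tested as log2(FPKM + 1), a scale that understates changes of low genes. The library BPA 4 stood apart in that 14.2% of its reads were mitochondrial, against 9.66% to 9.85% in BPA 1 to 3 and 7.02% to 8.33% in vehicle. BPA 4 also had the fewest genes above 0, at 17174, against 19090 to 20502 in BPA 1 to 3 and 19693 to 20845 in vehicle. When limma weighted the libraries, BPA 4 had the lowest weight, 0.253, against 0.751 to 2.57 in the others. All 8 kidney markers, Slc34a1 and Lrp2 of the proximal tubule among them, were detected in every library, and their summed level was 1504 to 2064 FPKM in vehicle and 1688 to 1840 FPKM in BPA. Summed skeletal muscle markers (6 genes) reached 247 FPKM in vehicle 4 and at most 1.22 FPKM in the other libraries, with Acta1 and Myh4 at 0 in 7 libraries. Summed fat markers (6 genes) were 3.04 to 87.4 FPKM in vehicle and 1.52 to 10.2 in BPA, immune markers (6 genes) 36.5 to 209 and 50.8 to 93.7, and erythroid markers (5 genes) 247 to 629 and 378 to 991. The highest fat and immune sums, and the lowest kidney and erythroid sums, were also those of vehicle 4. The part of these differences in the results below was not tested, and in bulk tissue fewer cells of a type and less RNA per cell cannot be told apart.

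Ribosomal protein messages were abundant in kidney but far from equal in the table. Mean FPKM over the 8 libraries ranged from 0 to 452 with a median of 61.2, and 23 of 83 members reached 100 FPKM while 11 stayed below 5. The most abundant was Rplp1, an acidic protein of the stalk that recruits elongation factors, at 518 ± 59 FPKM in vehicle (SD, n = 4). Rplp0, the base of the stalk, followed at 303 ± 27.7 FPKM, and Rps15, Rps3a1, Rpl36, Rpl41, Rpl4 and Rpl19 had vehicle means of 235 to 301 FPKM. Across the members, level and gene length were negatively related (Spearman coefficient -0.40, n = 83, a description across genes that share libraries), while coding length showed little relation to level (coefficient 0.15). FPKM is divided by this same gene length and not by coding length, so the negative coefficient is partly built in and cannot be set against the other.

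Several core members were nearly missing from the table while a copy was high. In 4 members (Rpl34, Rps10, Rpl29 and Rps18) under 10% of the reads of member and copies lay in the member, and in 9 it was under 50%. Rpl34 was at 0.206 to 1.02 FPKM over the 8 libraries and its copy Rpl34-ps1 at 164 to 260. Rps10 was at 0.597 ± 0.308 FPKM in vehicle, and Rps10-ps2 at 109 ± 8.56 (SD, n = 4). Rpl29 was at 0.477 ± 0.312 FPKM and Gm13841 at 66.3 ± 12.2, and Rps18 at 2.57 ± 1.63 and Gm11361, annotated as protein-coding, at 85.1 ± 13.1. Rps27, whose coding sequence Rps27rt repeats without a mismatch, was at 67.8 ± 16.5 FPKM and Rps27rt at 161 ± 17.3. For these members a low level of the message and a low share of ambiguous reads cannot be told apart.

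For Rps2 and Rpl26, member and copy were high in different libraries. Rps2, a protein at the entry of the mRNA channel, was at 0.686, 0.245, 0.353 and 83.8 FPKM in vehicle 1 to 4 and at 0.189, 0.0971, 68.7 and 49.8 FPKM in BPA 1 to 4. Its copy Rps2-ps13 was at 303, 249, 343 and 163 FPKM in vehicle 1 to 4 and 269, 262, 131 and 118 in BPA 1 to 4, so that the copy was lowest in the 3 libraries in which Rps2 was high. Summed over Rps2 and its 9 copies, the level was 280, 231, 313 and 310 RPM in vehicle and 243, 238, 249 and 202 in BPA, a range with no such step. Rpl26, a large-subunit protein near the exit tunnel, reached 77.2 FPKM in vehicle 3 and 115 in BPA 4, and in the other libraries it was at 1.59 to 3.10. Gm15772 was lowest in those 2 libraries, at 281 and 22.9 FPKM, against 422 to 595 FPKM elsewhere. The sum for Rpl26 was 190 to 242 in vehicle and 178 to 264 RPM in BPA. Rpl30 and Gm12191, which differ at 1 of 345 bases, showed this in part: Rpl30 was at 5.22 FPKM in vehicle 3 and 4.39 in BPA 4, its lowest values, and Gm12191 was highest in vehicle 3 at 148. The change of Rpl30 was -0.33, and 0.12 without BPA 4; summed with its copies it was -0.47 and -0.21.

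**Figure D1:**
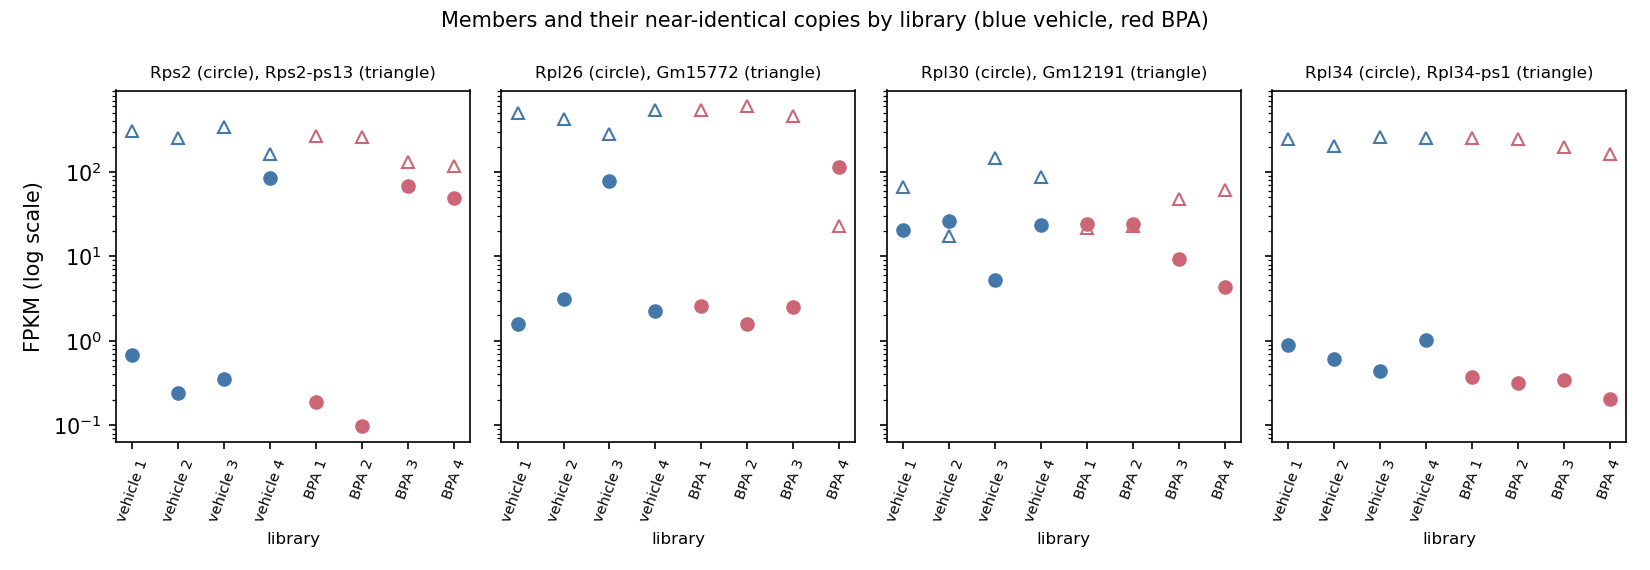
FPKM (log scale) of 4 members (filled circles) and a near-identical copy of each (open triangles) in the 8 libraries, vehicle in blue and BPA in red. Rps2 is high in vehicle 4, BPA 3 and BPA 4, Rpl26 in vehicle 3 and BPA 4, and Rpl34 stays at or under 1.02 FPKM throughout.

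BPA was compared with vehicle for the 78 members whose mean reached 0.5 FPKM; Rpl21, Rps10 and Rpl29 were below it, and Rpl10l and Rpl39l, paralogs known from testis, were listed at 0 in all libraries. No member passed limma's test at a Benjamini-Hochberg adjusted p under 0.05, where 0.00748% of all 13376 genes tested did (1 gene). The smallest adjusted p of a member was 0.321. At an unadjusted p under 0.05, 18 members were lower (background 6.83%) and 0 higher (background 4.18%). By sign, 73 of 78 were lower (background 52%), with a median log2 change of -0.33, against -0.01 for all genes tested. In 8 members every BPA library lay under every vehicle library (background 4.66%), and in 0 every BPA library lay over every vehicle library (background 3.23%). Both subunits were alike in this description, with 29 of 31 small-subunit members lower and a median of -0.33, and 44 of 47 large-subunit members lower and a median of -0.33.

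Library by library the shift was uneven. The members' median difference from the vehicle mean was -0.03, -0.23, 0.06 and 0.18 in vehicle 1 to 4 and -0.14, -0.01, -0.37 and -0.81 in BPA 1 to 4, on the log2(FPKM + 1) scale. The same median over all genes tested was between -0.03 and 0.02 in the 8 libraries. BPA 1 and BPA 2 therefore lay inside the range of vehicle, and BPA 3 and BPA 4 lay below it. BPA 4 was the lowest of the 8 libraries in 65 of the 78 members, and it was below the vehicle minimum in 69 of 78 (background 34.4%). For BPA 3 this held in 52 of 78 (background 22.6%), for BPA 2 in 15 (23.0%) and for BPA 1 in 20 (22.3%). Vehicle 4, the library with the highest muscle, fat and immune markers, was the highest of the 8 libraries in 43 members. In vehicle 4, 3 of 78 members lay below their vehicle mean, against 26 to 75 in the other vehicle libraries. The part of vehicle 4 in the members' lower values was not tested.

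**Figure D2:**
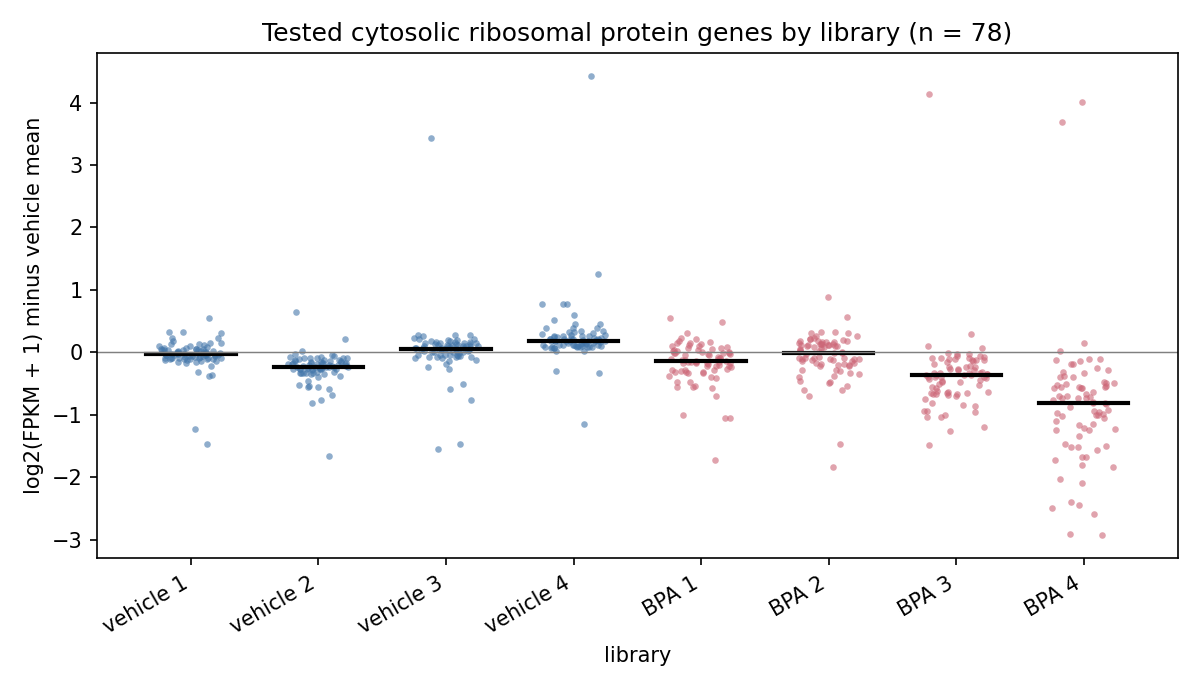
Difference of each of 78 members from its own vehicle mean, on the log2(FPKM + 1) scale, in each library, with points jittered sideways; black bars are medians over the members. Medians lie between -0.23 and 0.18 in vehicle, and at -0.37 and -0.81 in BPA 3 and BPA 4; the points above 3 belong to Rps2 and Rpl26.

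The members with the smallest p were lower in every BPA library than the vehicle mean, but none passed the adjusted test. Rpl24, a protein at the bridge between the subunits, was at 3.18, 2.72, 3.07 and 3.30 FPKM in vehicle and at 0.951, 1.90, 0.775 and 0 in BPA. The groups did not overlap, and the log2 change was -1.19 (SE 0.278, limma adjusted p = 0.321). These levels rest on 0 to 60 recovered reads per library, and an exact 0 allows up to 3 reads. Its copy Gm9385 was also lower, at 9.07 ± 0.858 FPKM in vehicle and 3.06 ± 1.77 in BPA (SD, n = 4), whereas another copy, Gm12254, was at 24.2 FPKM in BPA 4 and at most 3.55 elsewhere. Summed, Rpl24 and its copies were at 7.83 to 9.28 RPM in vehicle, 2.64 to 4.96 in BPA 1 to 3 and 12.2 in BPA 4, a change of -0.58 (-0.93 without BPA 4).

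Rpsa, a small-subunit protein also known as the laminin receptor precursor, was at 147, 137, 142 and 172 FPKM in vehicle and 103, 118, 91.5 and 118 in BPA. Here too the groups did not overlap, with a log2 change of -0.48 (SE 0.131, limma adjusted p = 0.365) that was no smaller without BPA 4 (-0.52). The pseudogene Rpsa-ps10, which matches its coding sequence at all but 6 of 885 bases, went the other way in 3 libraries: it was at 22.9 to 32.0 FPKM in vehicle, 166, 158 and 129 in BPA 1 to 3, and 11.3 in BPA 4. With its 2 counted copies added, the Rpsa change was -0.18.

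Rpl7a, which helps to process the large subunit's RNA, was at 17.6, 14.7, 23.8 and 38.4 FPKM in vehicle and 10.1, 13.3, 7.24 and 3.09 in BPA. Its groups did not overlap and its log2 change, -1.43 (SE 0.409, limma adjusted p = 0.365), was the lowest among the members. Without BPA 4 it was -1.08, and summed with 7 copies -0.99 with that library and -0.61 without it. Rpl38, a large-subunit protein known for its part in mouse skeletal patterning, was at 100 ± 22.6 FPKM in vehicle and 51.2 ± 21.6 in BPA (log2 change -1.03, limma adjusted p = 0.374). One vehicle library, at 67.1 FPKM, lay below the highest BPA library, at 73.7. Rps21, at the outer face of the small subunit, was at 89.4 to 106 FPKM in vehicle and 50.7 to 83.3 in BPA without overlap (log2 change -0.50, limma adjusted p = 0.385). Rps16, whose tail reaches the site of the growing peptide's tRNA, was at 103 ± 12 and 66.7 ± 20.5 FPKM (-0.67, limma adjusted p = 0.387). Rpl18 was at 41.3 ± 3.67 and 29.3 ± 6.70 FPKM (-0.50). Rps3a1 (-0.49) and Rpl34 (-0.40) were also among the 10 with the smallest p.

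The 5 members that were higher by sign were Rps2, Rpl26, Rpl3, Rpl7 and Rps12. Rpl3, which lies beside the peptidyl transferase centre, was at 59.4 ± 13.4 FPKM in vehicle and 63.1 ± 4.33 in BPA (log2 change 0.11, SE 0.164). Rpl7 (0.05) and Rps12 (0.03) differed by less than the spread within their groups, and their groups overlapped. For Rps2 (1.07, SE 1.83) and Rpl26 (0.13, SE 1.44) the errors exceeded the values, and summed with their copies the changes were -0.28 and -0.00. Rps12 with its 4 copies was also lower by sign, at -0.17 (-0.11 without BPA 4), and its copy Rps12-ps3, chosen after its values were seen, was at 92.0 ± 10.5 FPKM in vehicle and 60.6 ± 18.2 in BPA (SD, n = 4). With copies added, Rpl3 stood at 0.05.

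Among the most abundant members the sizes differed widely. Rplp1 was at 541, 430, 556 and 546 FPKM in vehicle and 458, 479, 369 and 232 in BPA (log2 change -0.48), whereas its partners of the stalk moved little: Rplp0 was at 285 ± 9.43 FPKM in BPA (-0.08) and Rplp2 at 56.7 ± 8 in vehicle and 51.8 ± 3.69 in BPA (-0.12). Rpl41 was at 315, 244, 177 and 298 FPKM in vehicle and 154, 271, 132 and 32.1 in BPA (-1.12). Rps15, at the tip of the small subunit's head, was at 224 to 359 FPKM in vehicle and 241, 243, 153 and 102 in BPA (-0.76), and Rpl36 at 291 ± 58.6 and 200 ± 74.6 (-0.61). In contrast, Rpl4, with the longest coding sequence of the set, was at 237 ± 25.7 and 233 ± 15.7 FPKM (-0.02), and Rpl19 at 235 ± 33.8 and 220 ± 57.7 (-0.13). Rpl10, which completes the large subunit late in its assembly, was at 168 ± 8.57 and 167 ± 34.2 (-0.03).

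Members with roles outside the ribosome were also read. Rps6, the small-subunit substrate of the S6 kinases, was at 154 ± 22.8 FPKM in vehicle and 145 ± 29 in BPA (log2 change -0.10). Rpl5 and Rpl11 bind the 5S RNA and, when free, the p53 regulator Mdm2. Rpl5 was at 78.7 ± 11.1 and 75.2 ± 12.5 FPKM (-0.07), and Rpl11 at 63.2 ± 13.8 and 45.0 ± 15.7 (-0.53, limma adjusted p = 0.494). Rps27a, which is made as a fusion with ubiquitin, was at 35.9 ± 4.80 and 33.6 ± 8.43 (-0.12, and -0.21 with its copies). In all 4 the groups overlapped.

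Paralogs that can replace a core subunit were compared with their partners. Rpl22l1 was at 9.61, 6.67, 8.80 and 9.67 FPKM in vehicle and 7.33, 5.63, 3.67 and 0.761 in BPA (log2 change -1.06, limma adjusted p = 0.432), and its partner Rpl22 at 36.9 ± 3.61 and 32.1 ± 6.53 (-0.21). Rpl7l1 was at 19.5 ± 0.951 and 16.1 ± 3.23 FPKM (-0.28), beside 0.05 for Rpl7. Rps27l, a known p53 target, was at 128 ± 14.4 and 115 ± 31.3 FPKM (-0.19), and Rps27 had a change of -0.65 that lay in BPA 4 (10.2 FPKM, against 37.4 to 123 in the other BPA libraries). Rps27 held 52.8% of the reads of its family, and Rps27rt was lowest, at 69.8 FPKM, in BPA 2, where Rps27 was highest. Their sum with a further copy had a change of -0.21, and 0.07 without BPA 4. Rpl3l, known from striated muscle, was low everywhere and highest in vehicle 4 at 2.45 FPKM, the library with the highest muscle markers. Rpl39 had a change of -0.42 and Rpl39l was listed at 0. No difference between a paralog and its partner was tested.

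Leaving out BPA 4 moved the values but not the main direction. The median of the 78 members became -0.14, with 61 lower (background 50.9%), beside -0.01 for all genes tested. At an unadjusted p under 0.05, 12 members were lower (background 6.12%), and all 12 were among the 18 above. Still 0 members passed the adjusted test (background 0.015%), and the smallest adjusted p was 0.291, again that of Rpl24. Members whose change was nearly all in BPA 4 included Rps27 (-0.65 with it and -0.01 without), Rpl23a (-0.83 and -0.13; summed with its copies, -0.47 and -0.08) and Rpl39 (-0.42 and -0.06). For Rpl41 the change was -1.12 with BPA 4 and -0.51 without it, and BPA 1 and BPA 3 were also below all vehicle libraries. Its copy Gm10076 was at 168 FPKM in vehicle 3, and at 95.1, 67.7 and 97.5 in BPA 1, 3 and 4. In the other libraries Gm10076 was at 7.72 to 26.4 FPKM. Summed with its copies, Rpl41 was at 280 to 373 RPM in vehicle and 222, 323, 188 and 78.3 in BPA 1 to 4. The change of this sum was -0.84, and -0.44 without BPA 4. As members, Rpsa (-0.48 and -0.52), Rps3a1 (-0.49 and -0.40) and Rpl34 (-0.40 and -0.36) kept most of their change. Summed with their copies, however, the values with and without BPA 4 were -0.18 and -0.11 for Rpsa, -0.40 and -0.25 for Rps3a1, and -0.20 and -0.08 for Rpl34. The copy Rps3a2 was at 65.4 FPKM in vehicle 4, 70.4 in BPA 1 and 61.9 in BPA 2, where Rps3a1 was at 236, 201 and 214, and at most 2.29 in the other libraries. Rpl23a and Rps3a2 were chosen after their values were seen. BPA replicates 1 and 2 against vehicle replicates 1 and 2 gave a median of 0.07 with 33 of 78 lower (background 50.6%), and replicates 3 and 4 alone gave -0.71 with 76 lower (background 52.1%). The labels name no batch for these numbers.

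**Figure D3:**
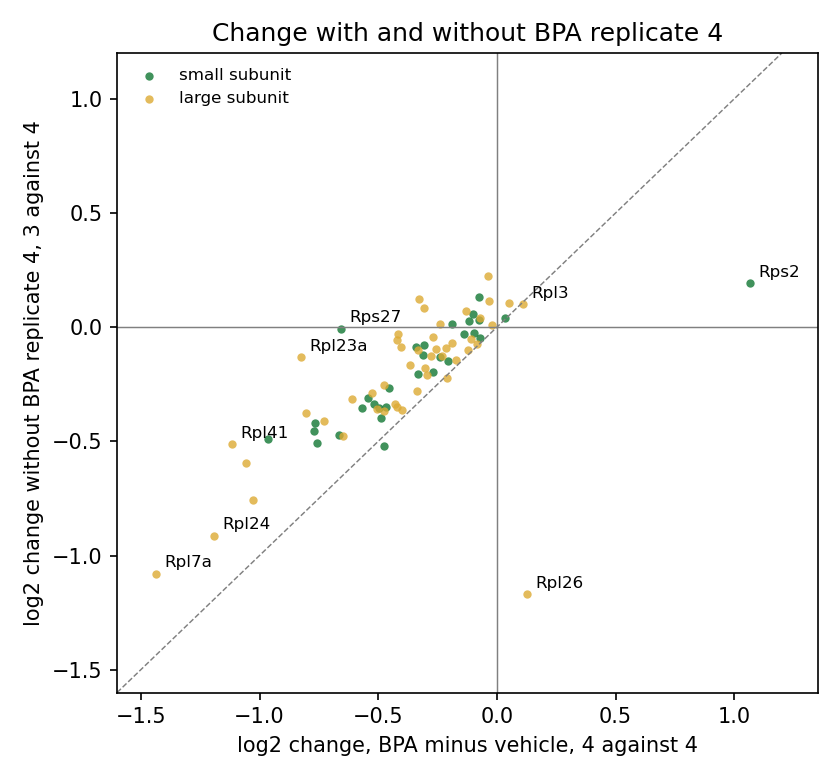
Log2 change of 78 members with all 8 libraries (x axis) and without BPA replicate 4 (y axis), small subunit in green and large subunit in yellow; the dashed line marks equal values. Most points lie above the dashed line and left of 0, Rpl7a and Rpl24 stay low on both axes, and Rps27 comes to -0.01 without the library.

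The gene length used for FPKM was one way to divide the set. Members of 383 to 1464 bases had a median change of -0.48, those of 1535 to 2431 bases -0.23, and those of 2473 to 6270 bases -0.32, with 26 members in each class. All tested genes within the same limits had medians of -0.18, -0.11 and -0.02. Without BPA 4 the class medians were -0.33, -0.09 and -0.13, beside -0.08, -0.05 and -0.01. The short class thus had the lowest median in both fits, and in each class the members' median was lower than that of all genes of like length. Across the members, Spearman's coefficient between change and gene length was 0.23 (n = 78, and 0.29 over all genes tested), and 0.21 without BPA 4 (0.15 over all).

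Coding length, which leaves out untranslated and alternative exons, was used as an added division. Members with 75 to 396 coding bases had a median change of -0.44, the middle class -0.35 and those of 582 to 1257 bases -0.23, and protein-coding genes of like coding length had -0.22, -0.11 and -0.05. Without BPA 4 the class medians were -0.19, -0.21 and -0.07 (-0.06, -0.02 and -0.02 for like genes), so the shortest class was then no longer the lowest. Spearman's coefficient between change and coding length was 0.39 with all libraries and 0.24 without BPA 4, as a description over 78 members from shared libraries. In BPA 4 alone the median difference from the vehicle mean was -1.10 in the shortest class and -0.57 in the longest, and in BPA 3 it was -0.45 and -0.20. In BPA 1 these were -0.17 and -0.02, and in BPA 2 0.01 and 0.06. Rpl41, Rps29, Rpl38 and Rps28, all of short coding sequence, had changes of -1.12, -0.97, -1.03 and -0.77, while Rpl36a, also of the shortest class, had -0.04 (-0.09 with its copies); Rpl36a, Rps28 and Rps29 were chosen after their values were seen. The change was also related to the GC content of the coding sequence (Spearman coefficient -0.28 over members and -0.42 with GC over all genes tested), and the parts of length and GC in the members' lower values were not tested apart.

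**Figure D4:**
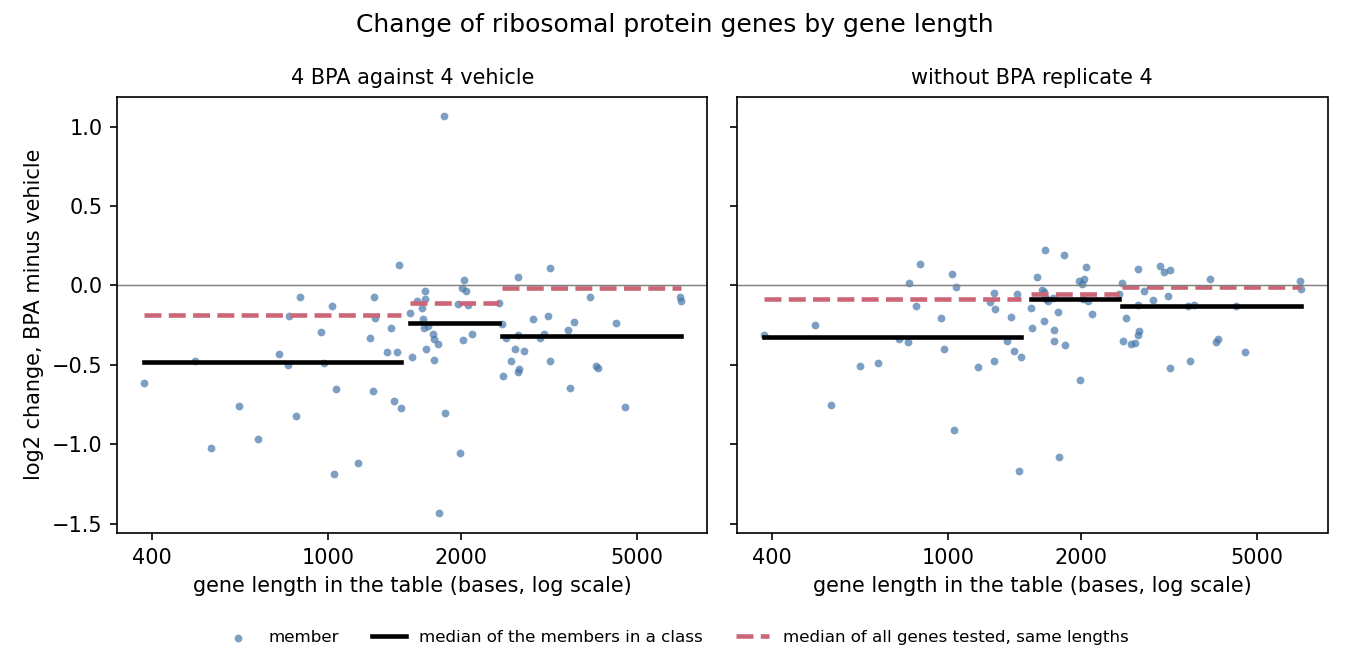
Log2 change of each of 78 members (points) against the gene length in the table (bases, log axis), with all 8 libraries at left and without BPA replicate 4 at right; black bars are class medians and red dashed bars the medians of all genes tested of the same lengths. The shortest class lies lowest in both panels, at -0.48 and -0.33.

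As a share of all recovered reads, the 83 members held 1.22%, 1.09%, 1.2% and 1.37% in vehicle 1 to 4 and 1.12%, 1.24%, 0.886% and 0.732% in BPA 1 to 4. The group means were 1.22% ± 0.118 and 0.995% ± 0.229 (SD, n = 4), and 1.08% ± 0.18 in BPA without replicate 4. BPA 1 and BPA 2 lay within the range of vehicle, and BPA 3 and BPA 4 below it. With the 190 copies added, the shares were 1.42% ± 0.134 and 1.16% ± 0.279, lower in BPA by 0.251 percentage points, beside 0.225 without the copies. Of reads from nuclear protein-coding genes, a total that leaves out the higher mitochondrial share in BPA, the members held 1.34% ± 0.125 in vehicle and 1.13% ± 0.244 in BPA. Summed over members and copies gene by gene, the family was lower in BPA for 79 of 83 members, with a median of -0.29, and for 65 of 83 with a median of -0.13 without BPA 4. These counts take in the members under the filter, and for the 78 tested members 76 families were lower. A share over all genes is not given on this scale, so the family counts have no background.

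Other genes of the ribosome and its control were read as lists. Of 77 mitochondrial ribosomal protein genes, which build the separate ribosome of mitochondria, 61 were lower (background 52%) and 16 higher. At an unadjusted p under 0.05, 10 were lower (background 6.83%) and 1 higher (background 4.18%). Their median was -0.17, and without BPA 4 it was -0.02 with 42 of 77 lower (background 50.9%). Mrps28 had the smallest p among them, at 31.8 ± 3.03 FPKM in vehicle and 16.7 ± 4.86 in BPA (-0.93, limma adjusted p = 0.306). Of 298 genes named as ribosomal protein pseudogenes (names with -ps), 79 were tested. Some of the 298, such as Rps12-ps3, are annotated as protein-coding, and pseudogenes with Gm names are left out. Of the 79, 62 were lower (22 of them at an unadjusted limma p under 0.05, against the same backgrounds) and 17 higher. Their median was -0.25 (-0.17 without BPA 4). Of 5 tested ribosomal proteins whose names fall outside the rule, 3 were lower, with Fau, a small-subunit protein made as a fusion with a ubiquitin-like domain, at 215 ± 33.9 and 153 ± 12.1 FPKM (-0.48, limma adjusted p = 0.373). By contrast the 22 translation factors and related genes whose messages also begin with a TOP motif, such as Eef1a1, Eef2 and Pabpc1, had 10 lower and 12 higher, 0 and 0 at an unadjusted p under 0.05, and a median of 0.03 (0.04 without BPA 4). The difference between the TOP lists was not tested. No gene of these lists passed the adjusted test.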

How the data were processed

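The authors deposited FPKM values per gene, with a gene length (in bases) per gene, for 4 BPA and 4 vehicle kidney libraries. The submitters' processing notes name DESeq2 1.20.0 and GRCm38, with no role; which aligner and counter were used, and how multiply matching reads were treated, is not given in the sources used here. Columns named BPA match those libraries, and the columns with the letter C were taken as vehicle, with their number as the replicate. In every library 100% of low values (up to 20 reads) were whole multiples of 1 read within 0.01, so whole reads were recovered.

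Changes were tested with limma 3.58.1 (R 4.3.3) on log2(FPKM + 1) with no covariate, using a robust empirical Bayes variance with a trend, over genes with a mean of at least 0.5 FPKM, and Benjamini-Hochberg adjustment over all 13376. The main result rests on no count model because the values are FPKM. The limma script was tested on simulated data. Copies were found from 50-base windows of GENCODE coding sequences. Python 3.11.15, numpy 2.4.6, pandas 2.3.3, scipy 1.17.1, Biopython 1.88 and matplotlib 3.10.9 were used. The members and lists were chosen with earlier results of these data known. Named members were those with the smallest p (10 per direction), the 8 highest, the 5 most variable within vehicle, a few of known roles, paralogs with partners, and those under the filter. Not every gene that this rule names is reported here. Alternatives were other pseudocounts, filters, scalings, variance models, library weights, recovered reads in limma-voom, a fit of protein-coding genes alone, a replicate block and libraries left out; adding copies and classes by coding length were chosen after seeing the data.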

Additional observations from a re-analysis of the deposited data

Results flagged for a closer look

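Within groups of 4 libraries, 6 values stood far from the other 3 of their group, of 84 groups examined; chance alone marks about 1 in 20 groups. Rplp1 was at 430 FPKM in vehicle 2, the lowest of its group. Rpl26 was highest of its group in vehicle 3 (77.2 FPKM) and in BPA 4 (115 FPKM). Rps2 was at 83.8 FPKM in vehicle 4, the highest of its group. Rpl7l1 was lowest of its group in vehicle 1 (18.1 FPKM) and in BPA 4 (11.3 FPKM).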

How the results depend on the processing

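The lower median of the members kept its sign under all alternatives except replicates 1 and 2 alone, where it was 0.068 with 33 members lower, and class medians by gene length of -0.035, 0.10 and 0.092; replicates 3 and 4 alone gave -0.71, with classes at -0.86, -0.55 and -0.69. Members lower at an unadjusted p under 0.05 were 29 with a common FPKM total (10.8% of all genes tested) and 7 without both replicates 4 (5.32% of all genes). Calls over all genes were 8 with library weights and 0 with limma-voom, with protein-coding genes only and with the replicate block (1507, 1349 and 1376 at an unadjusted p under 0.05). Leaving out single libraries gave 0 to 4 calls, a median of -0.45 to -0.14, 61 to 76 members lower and 8 to 30 at an unadjusted p under 0.05 (30 without BPA 2, 8 without vehicle 4, 10 without BPA 3, and 11 without vehicle 1 or 3, where 7.56%, 5.4%, 6.44%, 5.48% and 5.05% of all genes were lower at that p). The class medians ran from -0.59 to -0.33, -0.36 to -0.087 and -0.45 to -0.13, and the difference in read share from -0.31 to -0.14 percentage points; as a share of FPKM it was -0.43. The cause was not tested.

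Of single-member values, 704 kept their sign and 51 did not. With library weights the changes were 0.054 for Rpl4, 0.12 for Rpl19, 0.084 for Rpl10, 0.079 for Rps6, 0.073 for Rpl5, 0.083 for Rps27a, -0.51 for Rpl26 and 0.10 for Rpl30. Quantile scaling gave 0.019 for Rplp0, 0.084 for Rpl4, 0.073 for Rpl10, 0.0089 for Rps6 and 0.0050 for Rpl5. Without both replicates 4 they were 0.058 for Rpl4, 0.14 for Rpl19, Rpl10 and Rps6, 0.047 for Rps27l, 0.12 for Rpl5, 0.15 for Rps27, 0.090 for Rps27a, -1.55 for Rpl26, 0.30 for Rpl30 and 0.038 for Rpl3l. A GC correction gave 0.087 for Rps6, -0.0095 for Rpl7 and -0.023 for Rps12, and a common FPKM total -0.0099 for Rpl7 and -0.027 for Rps12. With single libraries left out the changes ran from -0.068 to 0.031 for Rpl4, -0.24 to 0.070 for Rpl19, -0.13 to 0.12 for Rpl10, -0.18 to 0.055 for Rps6, -0.0069 to 0.10 for Rpl7, -0.33 to 0.015 for Rps27l, -0.15 to 0.040 for Rpl5, -0.0085 to 0.22 for Rpl3, -0.062 to 0.19 for Rps12, -0.24 to 0.028 for Rps27a, -1.17 to 1.27 for Rpl26, -0.82 to 0.12 for Rpl30 and -0.41 to 0.049 for Rpl3l.

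Deviations of same-numbered libraries from their group means had correlations of 0.137, 0.0190, 0.138 and -0.0329. Between differently numbered libraries they ran from -0.219 (vehicle 1 with BPA 3) to 0.194 (vehicle 4 with BPA 3). Vehicle 1 and 2 had positive values with BPA 1 and 2 (0.0190 to 0.137) and negative ones with BPA 3 (-0.219 and -0.175). Vehicle 3 and 4 had negative values with BPA 1 and 2 (-0.0945 to -0.0418) and positive ones with BPA 3 (0.138 and 0.194). With BPA 4 all values lay between -0.0329 and 0.0681. Such values cannot show whether the replicate numbers mark a pairing or a batch. With replicate numbers as a block, 13 members and 6.6% of all genes were lower at an unadjusted limma p under 0.05.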

Other observations

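Genes that make ribosomes or control their messages were read beside the members. Of 30 ribosome biogenesis genes tested, 25 were lower (background 52%) and 5 higher in BPA. Their median log2 change was -0.16, and -0.13 without BPA 4. At an unadjusted limma p under 0.05, 5 were lower (6.83% of all genes tested). Ubtf, which opens ribosomal DNA for RNA polymerase I, was at 15.0 ± 1.13 FPKM in vehicle and 10.2 ± 1.24 in BPA (SD, n = 4), without overlap of the groups (log2 change -0.52, limma adjusted p = 0.279). Rrs1, an assembly factor of the large subunit, was at 13.0 ± 1.68 and 9.46 ± 1.12 FPKM (-0.42, limma adjusted p = 0.365). Nob1, the nuclease that trims the small subunit's RNA, was at 5.62 ± 0.784 and 3.38 ± 1.37 FPKM (-0.65). Replicates 1 and 2 alone gave a median of -0.07 for this list, and 0.07 for the ribosomal protein genes.

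Of 22 genes of mTORC1 signalling to translation, 13 were higher and 9 lower (background 52% lower), with a median of 0.02. Without BPA 4 the median was -0.02, with 12 lower (background 50.9%). At an unadjusted limma p under 0.05, 2 were lower (background 6.83%) and 1 higher (background 4.18%). Eif4ebp1, an inhibitor of cap-dependent translation, was at 4.17 ± 0.905 and 2.42 ± 0.774 FPKM (-0.61, limma adjusted p = 0.374), Akt1s1, an mTORC1 inhibitor, at 23.3 ± 1.93 and 17.7 ± 3.66 (-0.40), and Deptor, another, at 7.29 ± 1.04 and 9.54 ± 1.69 (0.34). None passed the adjusted test.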
